A study of Arabidopsis thaliana with 6 samples.

Results

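The genes described here encode 4 enzymes that shape the coloured and colourless flavonoids of Arabidopsis thaliana: DFR (AT5G42800), UF3GT (AT5G54060), AT5MAT (AT3G29590) and UGT78D1 (AT1G30530). They were chosen by name, with earlier results of these data known. Each is read from the only probe set annotated to it and to no other gene. The annotation used here gives 13356 genes a probe set of that kind, and these are 4 of them. DFR and UF3GT lie on chromosome 5, AT5MAT on chromosome 3 and UGT78D1 on chromosome 1 in the RefSeq gene table of TAIR10.1. Positions are left out, since the genome build of the array annotation is not stated.

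Flavonoids are made from phenylalanine through chalcones to dihydroflavonols, where the pathway divides. One arm makes flavonols, which absorb ultraviolet light and act as antioxidants in pollen and green tissue, and the other makes anthocyanins, the red and purple pigments that accumulate in stressed Arabidopsis plants. Both kinds of molecule are then decorated with sugars and acyl groups, which change their solubility, stability and place of storage. DFR (dihydroflavonol reductase) takes dihydroflavonols into the anthocyanin arm. UF3GT, also annotated UGT79B1, is a sugar transferase that adds xylose to anthocyanins, AT5MAT adds a malonyl group to anthocyanins, and UGT78D1 moves rhamnose onto flavonols.

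The samples were unopened flower buds of plants in the Col-0 background that carry a mutation in DREB1A (stock CS872453), a gene for a transcription factor of cold and drought responses. Plants were watered for 24 days, until the main stem was about 1 cm high, and water was then withheld, so that the soil was near 35% of its holding capacity after about 80 hours, which counts as day 3. Buds were collected on day 3 (plant age 28 days), day 4 (29 days) and day 5 (30 days), with 2 samples a day and 1 Affymetrix ATH1 array a sample. All 6 samples share the mutation and the drought, wild-type and watered buds were not analysed here, and the effects of plant age and of a longer drought cannot be told apart.

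Values are log2 RMA values, a scale on which a step of 1 is a doubling of signal, and a change is the difference between the means of 2 days. The labels do not state that the 2 samples of a day are from different plants, so the p-values describe a spread that may be technical only. The arrays of a day differed from each other by a median of 0.10 to 0.13. Values are relative to the whole array. If arrays are instead set equal on the average of 24 control probe sets for poly-A RNA (below, the poly-A scale), the median change of all probe sets was 0.08 from day 3 to day 4, -0.60 from day 4 to day 5 and -0.50 from day 3 to day 5. None of the 8 listed floral organ identity genes had a probe set of its own name here, so the tissue label could not be checked through them. Of 10 listed tapetum genes 3 could be read, and levels of different probe sets are not set against each other.

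DFR, at the entry of the anthocyanin arm, was 2.10-fold higher on day 5 than on day 3. Its 2 samples stood at 4.85 and 4.93 on day 3, at 5.05 and 5.13 on day 4, and at 5.71 and 6.22 on day 5. The days did not overlap, the first 2 days lay close together, and both samples of day 5 lay well above them, 1 further than the other. From day 4 to day 5 the level rose by 0.88 (SE 0.15, 95% interval 0.56 to 1.196, limma adjusted p = 0.0018, n = 2 per day), and from day 3 to day 5 by 1.07 (SE 0.15, 95% interval 0.75 to 1.39, adjusted p = 0.000283). From day 3 to day 4 the change was 0.20 (95% interval -0.12 to 0.52, adjusted p = 0.484). The later step exceeded the earlier one by 0.68 (SE 0.25, adjusted p = 0.125), a difference that did not pass the test. It passed without day 5 replicate 1 (0.93, adjusted p = 0.0305), but was 0.43 without day 5 replicate 2 (adjusted p = 0.267) and 0.064 on the poly-A scale (adjusted p = 0.841). On the poly-A scale the second step was 0.33 and missed the threshold (adjusted p = 0.0695), while the change over both steps was 0.59 and passed it (adjusted p = 0.00384). The day 3 and day 4 values of DFR lay near the lower quartile of their arrays (4.93 to 5.04), and the absent trp controls averaged 3.59 to 3.74.

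UF3GT, which decorates anthocyanins with xylose, was 1.92-fold higher on day 5 than on day 3. Its samples stood at 6.08 and 6.60 on day 3, at 6.66 and 7.002 on day 4, and at 7.21 and 7.35 on day 5. No day overlapped another, although the lower sample of day 4 stood close above the higher one of day 3. From day 3 to day 5 the level rose by 0.94 (SE 0.17, 95% interval 0.57 to 1.30, limma adjusted p = 0.00156, n = 2 per day). The single steps were 0.49 from day 3 to day 4 (95% interval 0.13 to 0.85, adjusted p = 0.123) and 0.45 from day 4 to day 5 (95% interval 0.08 to 0.81, adjusted p = 0.0729), and neither passed the test. Leaving out single arrays moved the first step between 0.24, when day 3 replicate 1 was dropped, and 0.75, when its partner was. The steps differed by -0.04 (SE 0.29, adjusted p = 0.946), with a 95% interval of -0.67 to 0.59. On the poly-A scale the second step turned to -0.10 (adjusted p = 0.551) and the steps differed by -0.66, which passed the test (adjusted p = 0.0478), whereas the change over both steps stayed upward at 0.45 (adjusted p = 0.0175).

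AT5MAT, the malonyltransferase of anthocyanins, had the smallest change from day 3 to day 5 among the 4 members, 0.32 (SE 0.12, 95% interval 0.06 to 0.57), and it did not pass the test (limma adjusted p = 0.0664). Its values were 4.74 and 4.89 on day 3, 4.79 and 5.07 on day 4, and 5.10 and 5.16 on day 5. Day 3 and day 4 overlapped, and both samples of day 5 lay just above all others. The steps were 0.12 (adjusted p = 0.617) and 0.20 (adjusted p = 0.253). Like those of DFR, these values were near the lower quartile of the arrays. The call depended on the fit, since a fit of days 3 and 5 alone gave the same change with an adjusted p of 0.0391. Leaving out either day 4 array comes to that same fit. On the poly-A scale the change turned to -0.17 (adjusted p = 0.263).

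UGT78D1, which acts on flavonols, moved in the opposite direction to DFR and UF3GT, with a level on day 5 that was 1.49-fold lower than on day 3. Its samples stood at 10.68 and 10.63 on day 3, at 10.60 and 10.75 on day 4, and at 10.11 and 10.05 on day 5. The first 2 days overlapped and both samples of day 5 lay below all others. Between days 4 and 5 the level dropped by 0.59 (SE 0.10, limma adjusted p = 0.00225, n = 2 per day). Over both steps it dropped by 0.57 (SE 0.10, 95% interval -0.80 to -0.35, adjusted p = 0.00174). From day 3 to day 4 the change was 0.02, with a 95% interval of -0.21 to 0.25 (adjusted p = 0.936). The fall over both steps was -1.06 on the poly-A scale (adjusted p = 5.36e-06). Tested against a minimum change of 1.2-fold, neither fall passed (adjusted p = 0.0567 over both steps and 0.0679 for the second). Its second step differed from its first by -0.61 (SE 0.18, adjusted p = 0.0639), which did not pass the test, but did pass with a mean-dependent prior variance (adjusted p = 0.0116), without the dimmest 30% of probe sets (adjusted p = 0.0429) and on the poly-A scale (adjusted p = 0.000897).

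**Figure D1:**
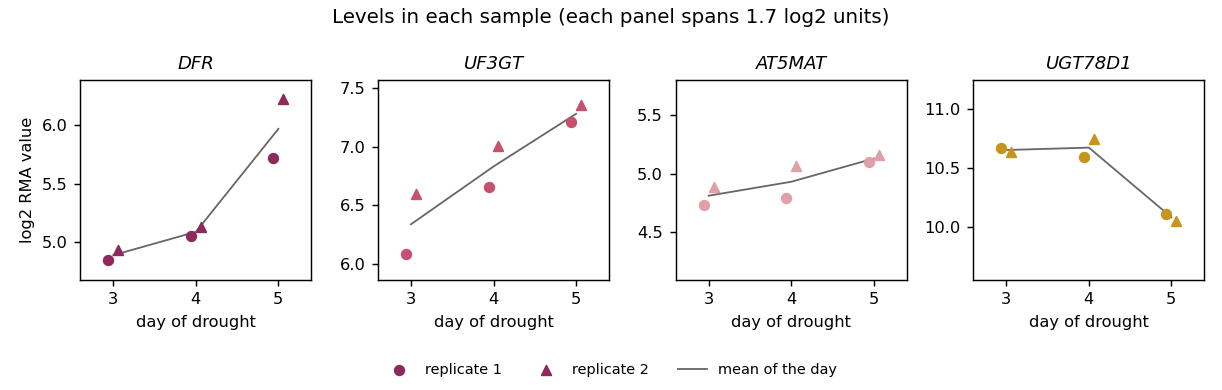
Level of each of the 4 genes in each sample (log2 RMA value, vertical axis) by day of drought (horizontal axis), with circles for replicate 1, triangles for replicate 2 and a line through the means of the days. Every panel spans the same range of log2 units. DFR and UF3GT are highest on day 5, AT5MAT moves little, and both day 5 samples of UGT78D1 lie below its other 4 samples.

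Over the 4 genes, none passed the test from day 3 to day 4, where 4.95% of all 22746 tested probe sets did. From day 4 to day 5, 1 rose and 1 fell, against 10.5% and 13.4% of all probe sets, and from day 3 to day 5, 2 rose and 1 fell, against 13.2% and 15.7%. The median change from day 3 to day 5 was 0.63 over the 4 genes and -0.01 over all tested probe sets. In the moderated F test of limma over the 3 days DFR (adjusted p = 0.000583), UGT78D1 (adjusted p = 0.00185) and UF3GT (adjusted p = 0.00444) passed, AT5MAT did not (adjusted p = 0.132), and 31.0% of all probe sets did. None of the 4 differences between the second and the first step passed the test, against 6.88% of all probe sets. Samples of days 3 and 4 did not overlap for 2 of the 4 genes, against 50.0% of all probe sets, while those of days 4 and 5, and of days 3 and 5, did not overlap for any of the 4, against 62.2% and 65.9%. DFR and UF3GT stood higher on each later day with no overlap among the 3 days, an order that 6.65% of all probe sets showed. From day 3 to day 5, 1.68% of probe sets had a larger log2 rise than DFR, 2.32% a larger one than UF3GT and 5.99% a larger fall than UGT78D1. The 4 genes, and the gene lists below, were chosen with earlier results of these data known. Shares of all probe sets are therefore given beside them as a description, not as a test. RNA came from whole buds, so fewer cells of a type and less RNA per cell cannot be told apart in any of these changes.

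A ratio between genes on the same array is not changed by adding a constant to all log2 values of that array, as centring or the poly-A scale does. The log2 ratio of DFR to UGT78D1, set to a mean of 0 on day 3, stood at 0.22 and 0.14 in the samples of day 4 and at 1.36 and 1.93 in those of day 5. The ratio of UF3GT to UGT78D1 stood at 0.38 and 0.56 on day 4 and at 1.41 and 1.61 on day 5. Relative to UGT78D1, DFR was thus 1.65 higher on day 5 than on day 3 (SD 0.09 on day 3 and 0.40 on day 5, n = 2), and UF3GT was 1.51 higher (SD 0.39 and 0.15). For AT5MAT the difference was 0.89 (SD 0.14 and 0.09). In all 3 ratios both samples of day 5 lay above both samples of day 3. That order was fixed by the single genes and is no further result. Both samples of day 5 lay above those of day 3 for each numerator and below them for UGT78D1. The share of single probe sets without overlap between these days (65.9%, in either direction) is not a share for such ratios. The 3 ratios share UGT78D1, whose own level dropped by 0.57 from day 3 to day 5, so they are not independent of each other. AT5MAT itself changed by 0.32, which did not pass the test. An exact permutation test of 2 samples against 2 cannot give a p below 0.333, and that was its value for each ratio (two-sided).

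**Figure D2:**
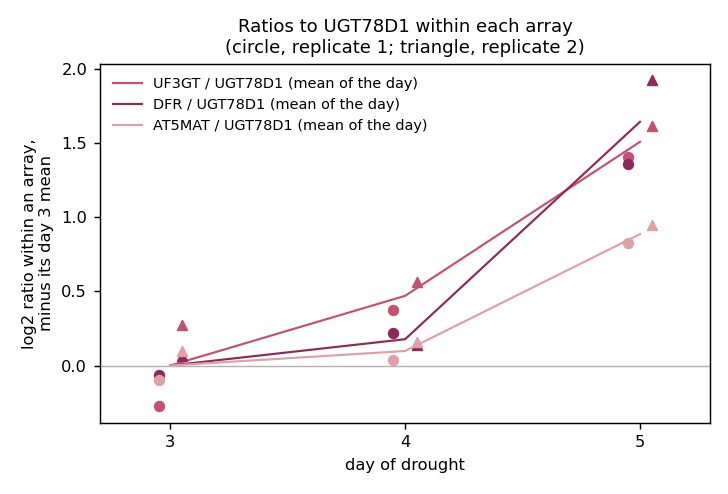
Log2 ratio of UF3GT, DFR and AT5MAT to UGT78D1 within each array, minus its mean on day 3 (vertical axis), by day of drought (horizontal axis). Circles are replicate 1, triangles replicate 2 and lines join the means of the days. All 3 ratios are highest on day 5, at 1.36 to 1.93 for DFR, 1.41 to 1.61 for UF3GT and 0.83 to 0.95 for AT5MAT.

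Of 57 other listed genes of flavonoid synthesis and its control, 7 had a probe set of their own in the annotation, and the others were not analysed here. That leaves out every listed activator and repressor of the pathway, the general phenylpropanoid genes, and the early flavonoid genes other than CHIL. From day 3 to day 5, 4 of the 7 fell and none rose, where 15.7% of all probe sets fell and 13.2% rose, and their median change was -0.35. None passed the test from day 3 to day 4 (4.95% of all probe sets), and 4 fell and none rose from day 4 to day 5 (13.4% and 10.5%). Without either array of day 5 only 2 of the 7 fell from day 3 to day 5, and without day 5 replicate 2 only 2 fell from day 4 to day 5.

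CHIL, a chalcone isomerase-like protein that raises flux into flavonoids before the arms divide, was lower on day 5 than on day 4. Its samples stood at 11.15 and 11.15 on day 3, at 11.46 and 11.31 on day 4, and at 10.97 and 11.13 on day 5. The days did not overlap, with day 4 highest. That second step dropped by 0.34 (SE 0.11, limma adjusted p = 0.0406). That call ended without any 1 array other than day 4 replicate 2 (adjusted p from 0.0615 to 0.232), and also after cyclic loess (adjusted p = 0.130) and repeated quantile normalization (adjusted p = 0.0921).

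Of 11 listed genes of the late anthocyanin steps, 5 had a probe set of their own. DFR and UF3GT rose from day 3 to day 5 (13.2% of all probe sets), none fell (15.7%), and AT5MAT, UGT78D2 and AT4G14090 did not pass the test, with a median change of 0.50 over the 5. DFR, UF3GT and AT5MAT are members chosen with earlier results known, so the count and the median mostly restate them. UGT78D2 is a sugar transferase that adds glucose to both anthocyanidins and flavonols. It stood at 9.70 and 9.53 on day 3, at 9.83 and 9.78 on day 4, and at 9.43 and 9.57 on day 5. Days 3 and 5 overlapped, and day 4 lay above both. The change of UGT78D2 from day 3 to day 5 was -0.11 (95% interval -0.35 to 0.12, limma adjusted p = 0.494), although on the poly-A scale it was -0.60 (adjusted p = 0.0012). Its second step was -0.30 and did not pass the test (adjusted p = 0.0622). That step passed with a mean-dependent prior variance (adjusted p = 0.0189), without the dimmest 30% of probe sets (adjusted p = 0.0415) and on the poly-A scale (-0.85, adjusted p = 5.26e-05). AT4G14090, a locus with no gene symbol in the annotation, stood at 5.05 and 5.65 on day 3, at 5.58 and 5.91 on day 4 and at 5.66 and 6.03 on day 5. Its change from day 3 to day 5 was 0.50 (95% interval 0.07 to 0.92, adjusted p = 0.0767), but 0.80 without day 3 replicate 2 (adjusted p = 0.0182), 0.20 without day 3 replicate 1 and 0.01 on the poly-A scale.

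Of 9 listed genes of flavonol decoration 4 could be read. All 4, UGT78D1 among them, fell from day 3 to day 5 (15.7% of all probe sets). From day 4 to day 5, 3 of them fell (13.4%). The median change of the 4 over both steps was -0.47. Tested against a minimum change of 1.2-fold over both steps, UGT78D1 (adjusted p = 0.0567), UGT78D3 (adjusted p = 0.715) and AT1G06000 (adjusted p = 0.886) did not pass. UGT79B6 (AT5G54010), a sugar transferase of flavonols known from anthers and pollen, had the largest change of the 4. Per sample the values were 7.84 and 7.68 on day 3, 7.46 and 7.07 on day 4, and 6.87 and 7.08 on day 5. Day 3 lay above the later days, which overlapped. Over both steps the level dropped by 0.78 (SE 0.14, limma adjusted p = 0.00159), and the first step was -0.50 (adjusted p = 0.068). That step was -0.69 and passed without day 4 replicate 1 (adjusted p = 0.0271), and was -0.30 without day 4 replicate 2 (adjusted p = 0.297). UGT79B6 and UF3GT belong to the same family of sugar transferases and are separated by 6 protein-coding genes in TAIR10.1, and they moved in opposite directions over the same days.

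UGT78D3, a close relative of UGT78D1 that moves arabinose onto flavonols, was likewise lowest on day 5. Its values were 7.10 and 7.23 on day 3, 7.23 and 7.36 on day 4, and 6.83 and 6.77 on day 5. Both samples of day 5 lay below the others. Between days 4 and 5 the level dropped by 0.50 (SE 0.10, limma adjusted p = 0.00635), a call that ended without day 5 replicate 2 (adjusted p = 0.0534). Over both steps it dropped by 0.36 (adjusted p = 0.0221). That call was lost without day 3 replicate 2 (adjusted p = 0.150) and without replicate 1 or 2 of day 5 (adjusted p of 0.0697 and 0.127). UGT78D2 and UGT78D3 are separated by 1 protein-coding gene in TAIR10.1.

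AT1G06000, a locus on the flavonol decoration list with no symbol in the annotation, dropped by 0.60 in the second step (SE 0.12, limma adjusted p = 0.00459). The samples gave 11.18 and 11.37 on day 3, 11.64 and 11.40 on day 4, and 10.98 and 10.87 on day 5. Its second step differed from its first by -0.85 (SE 0.21, limma adjusted p = 0.035), as 6.88% of all probe sets passed this test. The same difference did not pass for CHIL, UGT78D2, AT4G14090, UGT78D3, UGT79B6 or BAN (adjusted p from 0.0624 to 0.621). For these genes and AT1G06000 it was not run under other settings. Over both steps AT1G06000 dropped by 0.35 (adjusted p = 0.0469). That call was lost when either array of day 3 or of day 5 was left out (adjusted p from 0.0590 to 0.275), after centring on the array median (adjusted p = 0.0527), after repeated quantile normalization (adjusted p = 0.0691) and after cyclic loess (adjusted p = 0.106).

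BAN, the anthocyanidin reductase that leads to the tannins of the seed coat, dropped by 0.57 over both steps (SE 0.10, limma adjusted p = 0.00143). Tested against a minimum change of 1.2-fold, that fall did not pass (adjusted p = 0.0505). Of 6 listed seed coat and embryo markers BAN was the only 1 that could be read. Values per sample were 5.10 and 5.22 on day 3, 5.13 and 5.09 on day 4, and 4.60 and 4.58 on day 5. The first 2 days overlapped and day 5 lay below both. BAN uses anthocyanidins, which the anthocyanin enzymes use too, and its values on days 3 and 4 lay near the lower quartile of the arrays and those of day 5 below it.

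**Figure D3:**
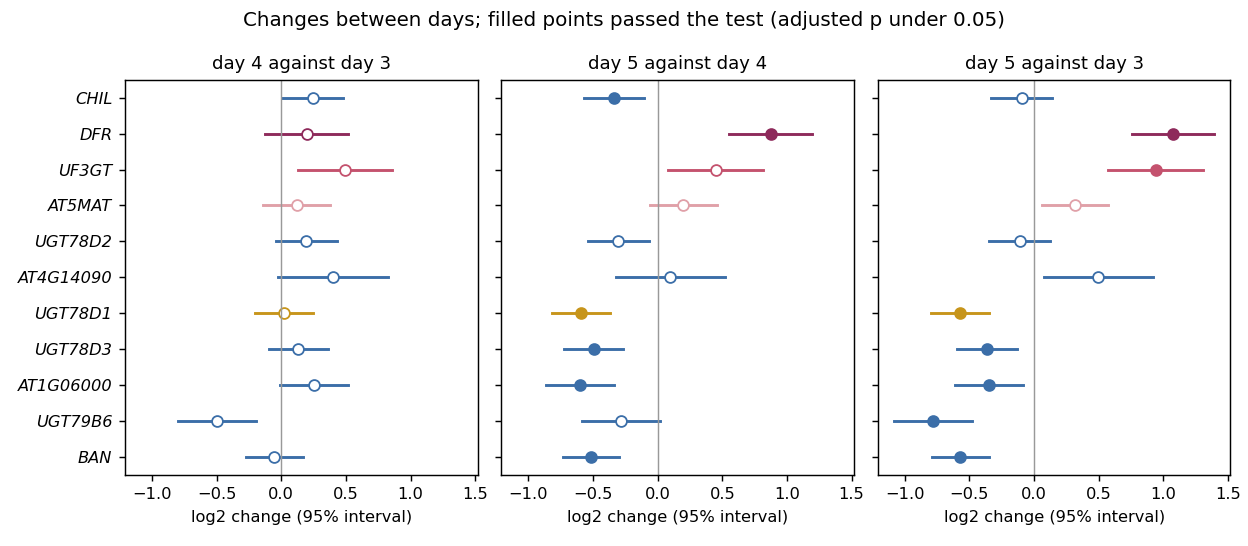
Log2 change (points, horizontal axis) with its 95% interval (lines) for the 4 genes, coloured red to gold, and for the 7 other flavonoid genes, in blue, in each comparison of days. Filled points passed the limma test at an adjusted p under 0.05. None is filled from day 3 to day 4, and from day 3 to day 5 DFR and UF3GT lie to the right of 0 while UGT78D1, UGT78D3, AT1G06000, UGT79B6 and BAN lie to the left.

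**Figure D4:**
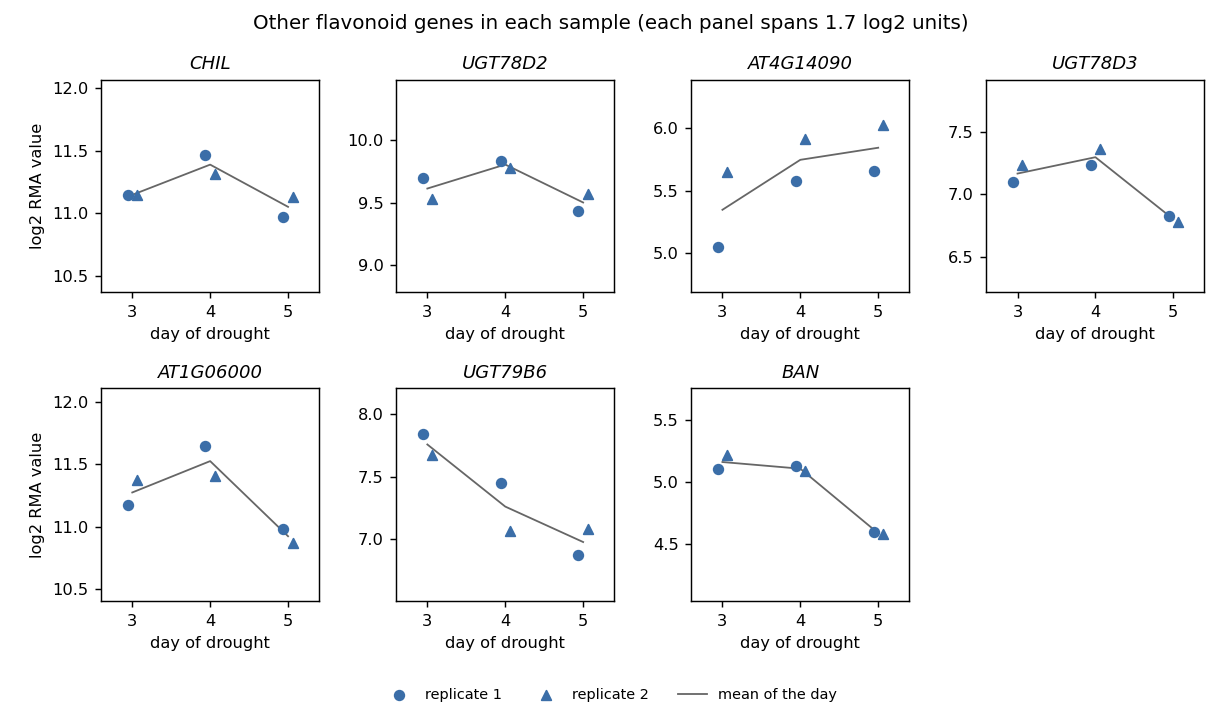
Level of the 7 other flavonoid genes in each sample (log2 RMA value, vertical axis) by day of drought (horizontal axis), with circles for replicate 1, triangles for replicate 2 and lines through the means of the days. Each panel spans the same range of log2 units. UGT78D3, AT1G06000 and BAN are lowest on day 5, and UGT79B6 is highest on day 3.

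UF3GT and UGT78D1 belong to the UGT family, whose members move sugars onto small molecules. Of 51 genes with a UGT number as symbol or synonym that could be read singly, 9 rose and 8 fell from day 3 to day 5. Of all probe sets 13.2% rose and 15.7% fell. The median change of the 51 was 0.04. AT4G14090 and AT1G06000 carry no such name in the annotation and were not counted, so the 51 need not be the whole family. Without day 5 replicate 2, 9 of the 51 passed the test in either direction. UF3GT had the third largest rise, after UGT85A5 (1.57) and UGT76E12 (1.17). UGT79B6 had the largest fall, and UGT78D1 ranked 4 among the falls, after UGT84A1 (-0.59) and UGT71C5 (-0.58).

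Some of the measured markers of bud tissues moved over the same days. Of the 3 measured tapetum genes, 2 fell from day 3 to day 5 (15.7% of all probe sets). Their mean level was 10.11 in both samples of day 3, 10.10 to 10.15 on day 4 and 9.59 to 9.88 on day 5. Of 7 listed leaf photosynthesis genes 3 could be read and 2 fell (15.7%), with changes from -0.46 to 0.09. Their mean level was 12.25 to 12.26 on day 3, 12.15 to 12.22 on day 4 and 11.99 to 12.03 on day 5. Of 8 listed late pollen genes 5 could be read and 2 rose from day 3 to day 5 (13.2%), with a median change of 0.06. From day 3 to day 4, 1 of them rose, where 4.95% of all probe sets passed in either direction. The pollen list had a mean level of 6.52 to 6.56 on day 3, 6.69 to 6.79 on day 4 and 6.73 to 6.74 on day 5. The part of these marker tissues in the changes of the flavonoid genes was not tested.

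Genes with the most similar pattern were found by the root mean square difference from each member over the 6 arrays, after each probe set had been centred on its own mean, among 6032 probe sets of at least the median level. AT5G01350 (0.06), AT5G57790 (0.07) and AT4G14930 (0.10) lay nearest to DFR. EXLB1, an expansin-like gene (0.11), AT1G73480 (0.12) and AT4G03200 (0.12) lay nearest to UF3GT. AT3G17680 (0.03), PHV, a gene for a leaf polarity transcription factor (0.03), and AT1G67660 (0.04) lay nearest to UGT78D1, and PHV is separated from UGT78D1 by 4 protein-coding genes on chromosome 1. AT4G18930, AT1G57540 and AT2G01090 (each 0.02) lay nearest to AT5MAT. From day 3 to day 5 the log2 changes were 1.01 to 1.096 for the 3 genes nearest to DFR, 0.77 to 1.18 for those nearest to UF3GT, -0.60 to -0.58 for those nearest to UGT78D1 and 0.29 to 0.31 for those nearest to AT5MAT. Since these genes were selected for their likeness over the same arrays, their changes are fixed by that choice and are given as a description. On the poly-A scale the 3 genes nearest to AT5MAT turned to between -0.20 and -0.18 and AT4G03200 stood at 0.28.

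**Figure D5:**
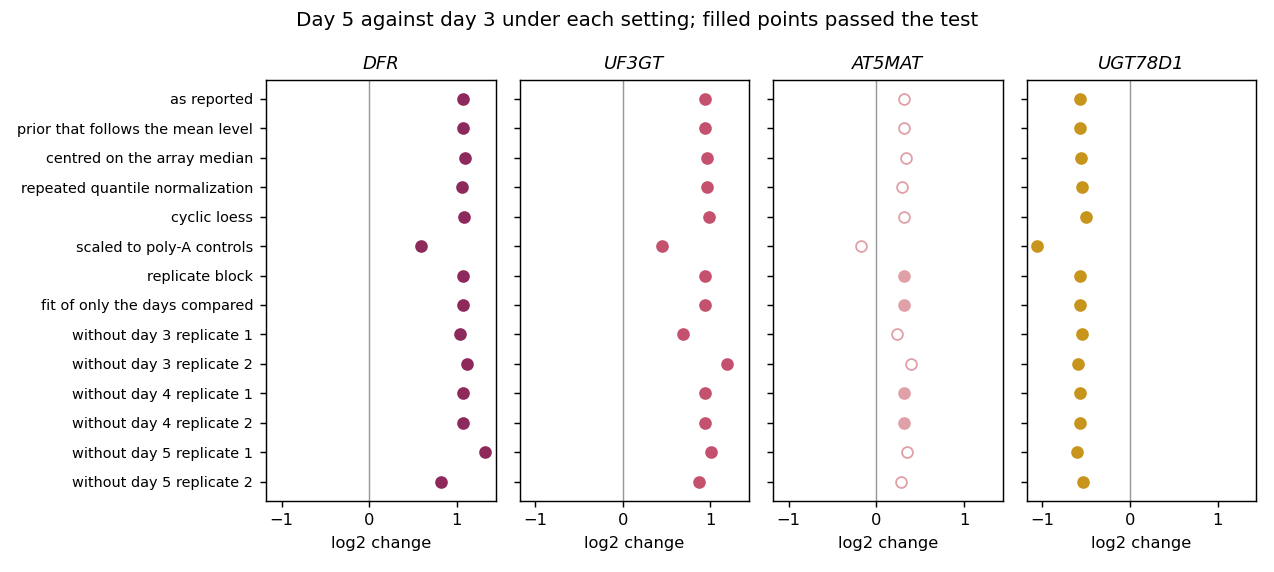
Log2 change of the 4 genes from day 3 to day 5 (horizontal axis) as reported and under alternative priors, scalings, sets of arrays and the replicate number as a block (vertical axis). Filled points passed the test. DFR and UF3GT lie above 0 and UGT78D1 below 0 in every setting drawn, while AT5MAT crosses to -0.17 on the poly-A scale.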

How the data were processed

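The deposited log2 values, 1 for each probe set of each array, are RMA output (affy), per the submitters' processing notes. The sources used here give neither versions nor the arrays that were normalized as a set. Tests covered 22746 of 22810 probe sets, without 64 controls of the array maker. The platform annotation gives 1 gene for 13513 of the tested probe sets, several for 503 and none for 8730, and only those with 1 gene were named (13436 matched RefSeq).

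A linear model of day was fitted to all 6 arrays with limma 3.58.1 in R 4.3.3 (eBayes, no trend, with 3 residual and 8.01 prior degrees of freedom). Two-sided p-values were adjusted after Benjamini-Hochberg across the whole table, at a threshold of 0.05. The fit was tested on simulated data. The 4 members and the gene lists were chosen with earlier results of these data known. The difference between steps, the UGT family and the UGT genes named were added after values had been seen. The ratios to UGT78D1 were not among the planned tests either. Other genes named are those of the flavonoid lists with a probe set of their own (the brightest where several) and the 3 most like each member. The number of arrays limits precision.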

Additional observations from a re-analysis of the deposited data

How the results depend on the processing

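Over both steps DFR and UF3GT rose and UGT78D1 fell under each other prior, scaling and set of arrays run, and UGT78D1 missed only the test against a minimum change of 1.2-fold (-0.57, and -0.59 for the second step). The dimmest 30% of probe sets hold DFR, AT5MAT and BAN, which then could not be tested, so that 1 of the members passed from day 4 to day 5. With the 1.2-fold minimum, 161, 1256 and 2277 probe sets passed for day 4 against 3, 5 against 4 and 5 against 3, as did 1 member and 0 of the other flavonoid genes from day 4 to day 5, 1 of those genes from day 3 to day 5, and 6 UGT genes. On the poly-A scale 19570 and 18174 probe sets passed for day 5 against days 4 and 3, 19922 in the F test, 39 UGT genes, and all 7 other flavonoid genes from day 4 to day 5. Higher values then made up 68.0%, 1.97% and 3.93% of the calls of the 3 comparisons, against 50.1%, 44.0% and 45.6%, and cyclic loess gave 55.2% for day 5 against day 4. On that scale the second step was 0.33 for DFR, -0.10 for UF3GT, -0.35 for AT5MAT and -0.45 for AT4G14090, the change of AT5MAT over both steps was -0.17 and its difference between steps -0.53, BAN stood at 0.0097 from day 3 to day 4, and AT4G18930, AT1G57540 and AT2G01090 at -0.20, -0.18 and -0.19. The average of the poly-A controls was 7.02 and 7.16 on day 3, 7.08 and 6.98 on day 4, and 7.63 and 7.53 on day 5. Log2 signal from 25S rRNA was also highest on day 5. It stood at 12.30 and 12.30 on day 3, at 12.46 and 12.50 on day 4, and at 13.30 and 13.52 on day 5. The cause of these differences between scales and between days was not tested, nor was RNA quality.

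With the replicate number as a block, UF3GT passed for both steps (0.49, adjusted p = 0.0307, and 0.45, adjusted p = 0.0159) and AT5MAT over both (0.32, adjusted p = 0.0439). In the 3 comparisons 1, 3 and 4 members then passed, as did 1310, 5614 and 6718 of all 22746 tested probe sets. AT4G14090 also passed over both steps (adjusted p = 0.00563). The numbers need not pair the samples, as deviations of replicate 1 correlated at 0.06, -0.002 and 0.10 between days. A fit of only the days compared called UF3GT for the second step (0.45, adjusted p = 0.041) and AT5MAT over both (0.32). A mean-dependent prior called 1 other flavonoid gene from day 3 to day 4, UGT79B6 (adjusted p = 0.0428).

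Leaving out each array in turn gave 227 to 1033, 2506 to 4822 and 3844 to 7034 probe sets for day 4 against 3, 5 against 4 and 5 against 3, and 3842 to 7121 in the F test. The other flavonoid genes called were 0 to 1, 2 to 5 and 2 to 4, and the UGT genes 9 to 18. Day 4 against day 3 ranged from -0.057 to 0.10 for UGT78D1, from -0.018 to 0.25 for AT5MAT and from -0.11 to 0.0026 for BAN. The second step ranged from 0.28 to 0.62 for UF3GT and from -0.089 to 0.28 for AT4G14090, and AT5MAT over both steps from 0.24 to 0.39. The difference between steps ranged from -0.39 to 0.30 for UF3GT and from -0.19 to 0.35 for AT5MAT.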
